A study of Zea mays with 6 samples.

Results

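This account covers 30 maize genes that were listed higher in drought than in control plants in both stem and root while leaf stayed within a narrow range, out of the 109715 gene identifiers in each table. The members were chosen on measured values. Within each tissue a log2 ratio was taken as log2((drought FPKM + 1)/(control FPKM + 1)), where FPKM is the abundance of a gene's fragments after correction for the size of its transcript and of the library. A member has a log2 ratio of at least 1.5 in stem and in root and one between -1 and 1 in leaf. It also lies above 0 FPKM in all 4 stem and root libraries and reaches at least 10 FPKM in the higher library of both tissues. The stem, root and leaf ratios below are therefore a description of what the rule selected, and none is tested.

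The plants were wild type maize of the hybrid ZD619, labelled as seedlings of 2 to 3 leaves, although the methods describe drought from a later seedling age. Leaf stands for the top leaves. Drought plants had water withheld until the soil reached a low water content and were then held there, whereas control plants stayed well watered. Leaf, stem and root were each sequenced once per treatment, giving 6 libraries, and RNA of a tissue came from several plants together. Although each treatment was grown in replicate, the tables hold a single value per tissue and treatment, so no value has an error between replicates, no p-value can be given, and a difference between treatments cannot be told apart from a difference between these libraries. In whole organs, fewer cells of a type and less RNA per cell cannot be told apart either.

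The 6 libraries held between 37881 and 40428 genes above 0 FPKM, and their FPKM sums ran from 908668 in root drought to 544251 in root control. A single gene, GRMZM2G581850, made up 9.55% of the root drought sum, while the top gene of the other libraries took between 0.595% and 1.30%. The tables hold no read counts and library read totals were not used here, so the number of reads behind a value is not given. The 9 photosynthesis markers, among them the C4 enzyme gene pep1 and light-harvesting genes, summed to 7357 FPKM in leaf drought and 19100 FPKM in leaf control, to 17453 and 18368 FPKM in stem drought and control, and to 12.1 and 17.6 FPKM in root drought and control. By these sums leaf held less of these transcripts in drought, stem came near control leaf, and root held next to none. Single markers differed between stem and leaf in both directions. In control, pep1, me3, lhcb4 and pdk1 were lower in stem than in leaf, and the other markers were higher. For pep1 the levels were 851 FPKM in stem control and 3735 FPKM in leaf control, and for lhcb3 they were 3517 and 523 FPKM. The 5 root markers, of which 4 were above 0 in root control, summed to 82.5 FPKM in root drought and 24.3 FPKM in root control, and to between 2.48 and 11.4 FPKM in leaf and stem. The part of these marker changes in the members' values was not tested. Of the 8 meristem genes taken as stem markers, 5 were listed at 0 in both stem libraries, among them kn1, which was at 0 in all 6 libraries. The most abundant of them in stem, knox6 and knox7, had 24.1 and 15.3 FPKM in stem drought and 23.9 and 11.4 FPKM in stem control, below their leaf levels, so the list does not set the stem libraries apart.

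Drought reaches the organs of a plant unequally. Roots meet drying soil first and signal to the shoot with abscisic acid and other hormones, stems carry water and hold the growing zone and leaf bases, and leaves close their stomata. Jasmonates are a further class of stress hormones. They act by destroying JAZ proteins, which are repressors of the TIFY family, and the genes of these repressors are themselves switched on by the hormone, so that they serve as a brake. Beta-glucanases cut glucans of cell walls, and ribosome-inactivating proteins remove a base from ribosomal RNA. Genes of these kinds are the ones that carry a name among the 30.

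With the same contrast made in 3 organs, the design shows which genes differed between treatments in several of them. Among the 9944 genes that met the level limits in both stem and root, 290 reached a log2 ratio of 1.5 in stem and 1206 did so in root. Over each tissue's own expressed genes, the same limit was reached by 4.24% in stem and 15.5% in root. The lists shared 55 genes (0.553% of the 9944), which is 19.0% of the stem list and 4.56% of the root list. Leaf divided these 55 genes into 11 with a log2 ratio above 1, 14 with one below -1 and the 30 members between them (0.302% of the 9944). The members were thus 54.5% of the shared genes, while 87.4% of the 9944 genes lay in this leaf range.

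**Figure D1:**
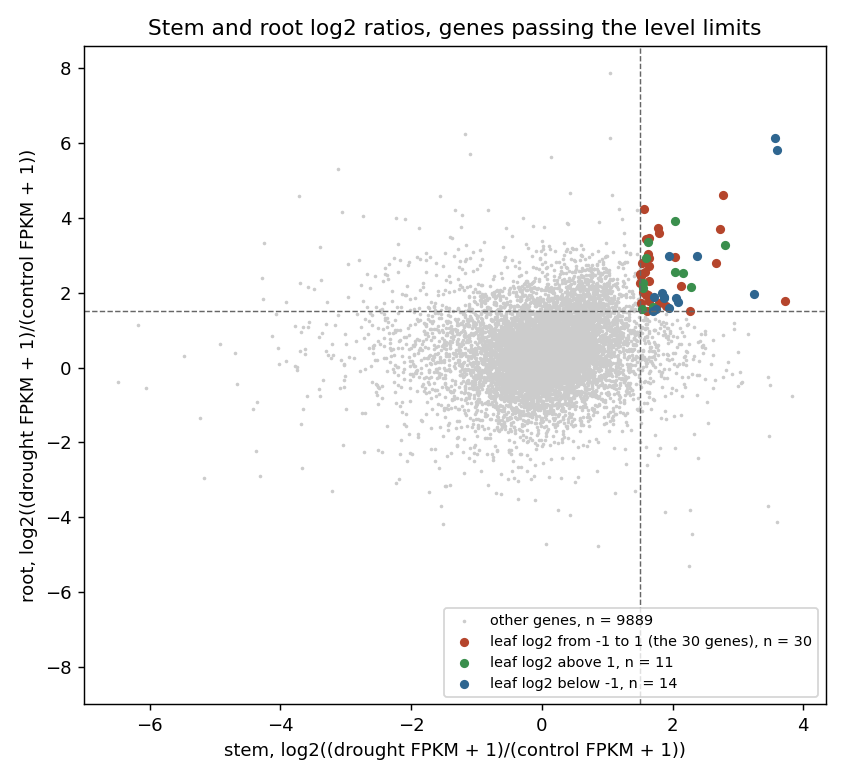
Each point is a gene that passed the level limits in stem and root, with its stem log2 ratio on the x axis and its root log2 ratio on the y axis, and dashed lines mark 1.5. The 55 genes past both lines are coloured by their leaf log2 ratio, and the 30 members (leaf from -1 to 1) reach further in root, up to 4.62, than in stem, up to 3.71.

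The differences of the members were larger in root than in stem, as they were over the 9944 genes. Their median log2 ratio was 2.49 in root (from the limit of 1.5 to 4.62), 1.64 in stem (from the limit of 1.5 to 3.71) and -0.35 in leaf (from -0.95 to 0.89). Over the 9944 genes the medians were 0.42 in root, 0.06 in stem and -0.08 in leaf. Root was ahead of stem in 25 of the 30 members, a pattern that 66.6% of the 9944 genes also had. Whereas 8 members reached a log2 ratio of 3 in root, 1 did so in stem. The shares of the 9944 genes that reached 3 were not counted. Among the 9944 genes a log2 ratio of 1.5 was also commoner in root (12.1%) than in stem (2.92%). Part of the root values is shared with all root genes. When the median of the genes above 1 FPKM was taken off each tissue (0.30 in root, 0.06 in stem and -0.02 in leaf), 17 of the 30 genes still met the rule, and root stayed ahead of stem in 21 of the 30. The share of the 9944 genes with root ahead after this step was not computed, so the 21 are not read as a trait of the members. Before this step the median of root minus stem log2 ratio was 0.84 over the members and 0.36 over the 9944 genes.

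The median level of the members was 35.3 FPKM in stem drought and 8.88 FPKM in stem control. In root it was 32.7 FPKM in drought and 5.97 FPKM in control, and in leaf 17.9 FPKM in drought and 20.9 FPKM in control. Leaf was lower in drought for 21 members, higher for 8, and listed at 0 in both libraries for 1. Of the 9944 genes 56.8% were lower in drought leaf, and 57.4% of those with a leaf log2 ratio between -1 and 1.

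**Figure D2:**
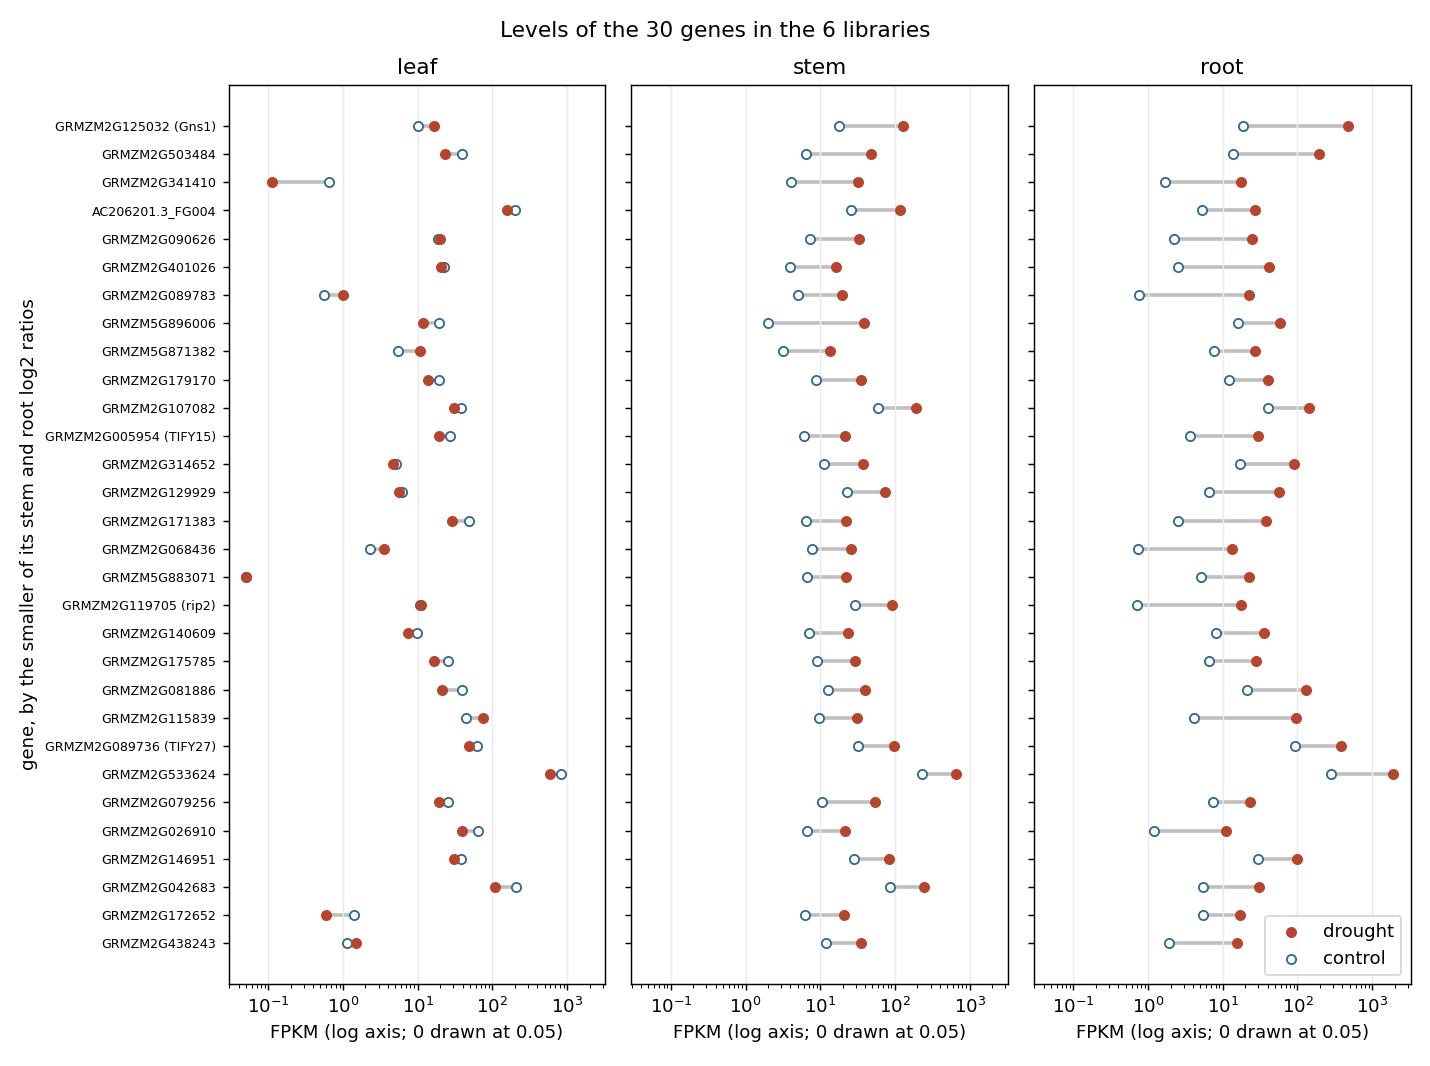
The plot of levels by library gives the FPKM of each member on a log axis in leaf, stem and root, with filled points for drought and open points for control. In stem and root every filled point lies to the right of its open point, as the rule requires, while in leaf the points lie close together or change order.

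Gns1 (GRMZM2G125032, also glucA in the reference) had the largest smaller ratio of all members. In rice the name Gns1 belongs to a glucanase that cuts mixed-linkage glucan of grass cell walls. Its level was 481 FPKM in root drought and 18.6 FPKM in root control, a 25.9-fold difference, and 128 FPKM in stem drought and 18.0 FPKM in stem control, a 7.14-fold difference. In leaf it stood at 16.4 FPKM in drought and 10.1 FPKM in control. Control levels of Gns1 were thus alike across the organs, between 10.1 and 18.6 FPKM, and the drought levels spread out from 16.4 to 481 FPKM.

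The gene rip2 (GRMZM2G119705) encodes a ribosome-inactivating protein. It had 17.6 FPKM in root drought and 0.716 FPKM in root control, and 91.2 FPKM in stem drought and 29.4 FPKM in stem control. Leaf gave 11.1 FPKM in drought and 10.6 FPKM in control, a log2 ratio of 0.06. The root ratio was 24.5-fold over a control level under 1 FPKM, and the stem ratio was 3.10-fold. Stem was the highest organ for rip2 in both treatments.

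Of the 4 named members, 2 belong to the TIFY family. TIFY15 (GRMZM2G005954) had 29.5 FPKM in root drought and 3.61 FPKM in root control, and 21.2 FPKM in stem drought and 6.12 FPKM in stem control. In leaf its level was 19.4 FPKM in drought and 26.9 FPKM in control. It was therefore a leaf-rich gene in well-watered plants, and all 3 organs lay between 19.4 and 29.5 FPKM in drought. TIFY27 (GRMZM2G089736) was more abundant, at 383 FPKM in root drought and 93.7 FPKM in root control, and at 96.2 FPKM in stem drought and 32.4 FPKM in stem control. Its leaf level was 47.9 FPKM in drought and 62.3 FPKM in control. With the tissue medians taken off, TIFY27 had a stem log2 ratio of 1.48 and so missed the rule.

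The reference names 21 genes of the tables TIFY, JAZ or ZIM, a list drawn up after the values of these 2 genes had been seen. In root 20 of the 21 had a log2 ratio above 0 and 9 reached 1.5, with a median of 1.48. The 15 of them that met the level limits in both organs had a root median of 1.28, beside 0.42 over the 9944 genes. How many of the 9944 genes were above 0 was not counted, but their medians were above 0 in root (0.42) and in stem (0.06). The family's counts above 0 in these organs are therefore read as no result about the family. With the tissue medians taken off, 18 of the 21 were above 0 in root and 9 still reached 1.5. In stem 18 were above 0, of which 16 after the median was taken off, and 3 reached 1.5, of which 1 after the median was taken off, with a median of 0.57 (0.06 over the 9944 genes). Of the 15 that met the level limits in both organs, 5 reached 1.5 in root and 3 in stem. Over the 9944 genes 12.1% and 2.92% did so. The 3 in stem are TIFY10, TIFY15 and TIFY27. As members, TIFY15 and TIFY27 reach 1.5 in both organs by the rule, so they enter both counts by selection and the counts are no test. Leaf split the family, with 11 genes above 0, 3 of them above 1, and 3 below -1.

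Their relatives missed the rule in different organs. TIFY10 (GRMZM2G145458) met the stem and root limits, with 57.0 FPKM in root drought and 11.1 FPKM in root control and with 13.4 FPKM in stem drought and 3.93 FPKM in stem control. It stayed out because leaf was also higher, at 3.05 FPKM in drought and 0.338 FPKM in control. TIFY2 (GRMZM5G838098) had 110 FPKM in root drought and 12.3 FPKM in root control, and its stem log2 ratio of 1.35 was under the limit. TIFY25 (GRMZM2G116614) had the highest root log2 ratio of the family, 3.28, from 173 FPKM in drought and 16.9 FPKM in control. Its stem held 156 FPKM in drought and 102 FPKM in control, and its leaf 63.9 FPKM in drought and 255 FPKM in control. TIFY18, TIFY21 and TIFY23 had root log2 ratios between -0.06 and 0.24, and all 3 were below 0 once the root median was taken off.

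**Figure D3:**
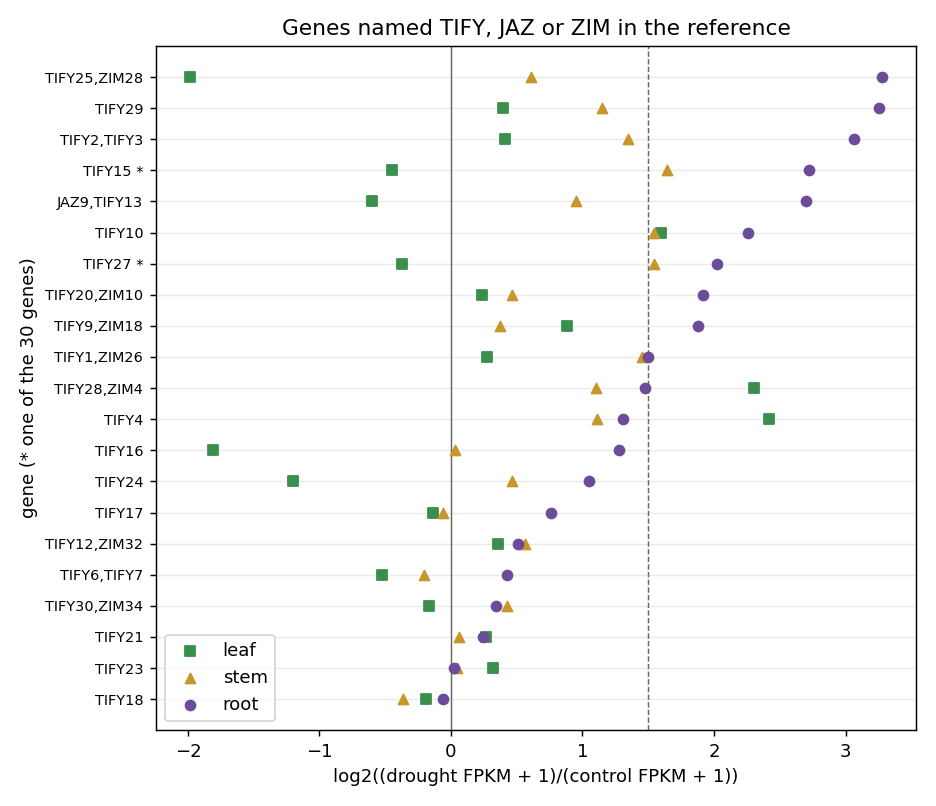
For each gene named TIFY, JAZ or ZIM, the x axis gives the log2 ratio of drought over control in leaf (squares), stem (triangles) and root (circles), with lines at 0 and 1.5. Asterisks mark TIFY15 and TIFY27, which are past 1.5 in stem and root and below 0 in leaf. Root ratios run from -0.06 to 3.28, stem ratios from -0.37 to 1.64 and leaf ratios from -1.98 to 2.42.

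The rule sets level limits in stem and root and none in leaf, so the leaf level is free to vary among the members. In control plants 17 of the 30 had their highest level in leaf, 9 in stem and 4 in root, although levels come from a separate table for each organ. Of the 9944 genes, 42.9% were highest in leaf, 20.5% in stem and 36.6% in root in control. In drought plants 2 members were highest in leaf, 11 in stem and 17 in root, whereas 30.5% of the 9944 genes were highest in leaf, 14.9% in stem and 54.6% in root. As the rule fixes a higher drought level in stem and root and a like one in leaf, the direction of this shift follows from it.

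**Figure D4:**
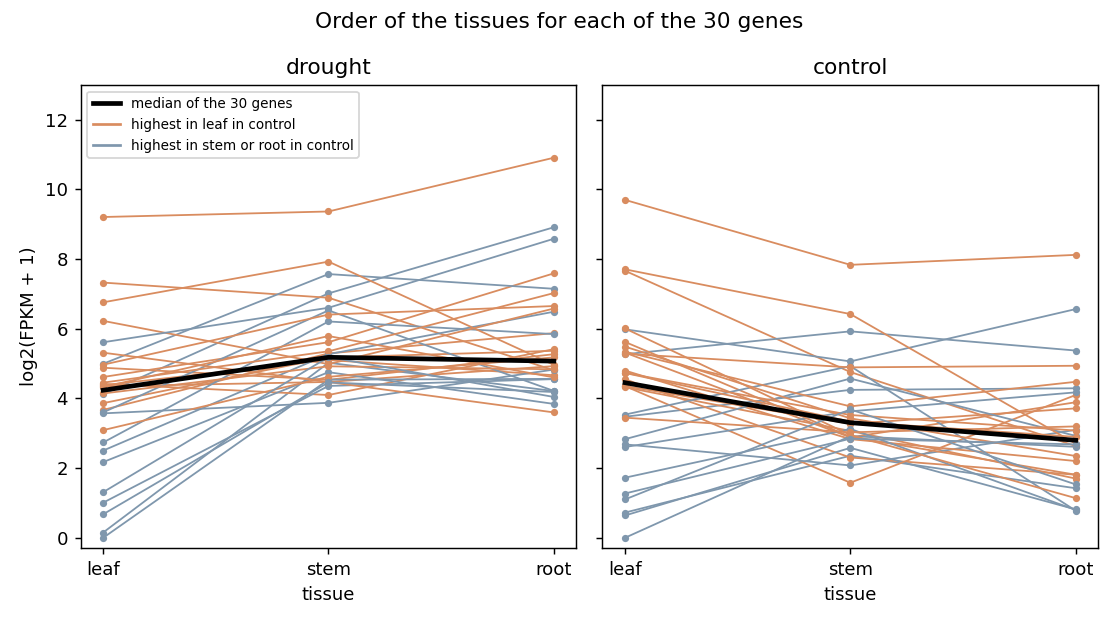
Lines join the log2(FPKM + 1) of each member in leaf, stem and root, in drought on the left and in control on the right, and the black line is the median over the 30 genes. Lines in orange are the 17 genes highest in leaf in control, of which 2 are still highest in leaf in drought, so the black line goes up from leaf to stem in drought and down in control.

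The 17 genes highest in leaf in control are called leaf-rich here, although 42.9% of the 9944 genes were also highest in leaf in control. In 12 of the 17 leaf control was at least 2 times the stem and root controls. The share of the 9944 genes at that limit was not counted. Most abundant of the 17 was GRMZM2G533624. It had 1924 FPKM in root drought and 278 FPKM in root control, and 659 FPKM in stem drought and 227 FPKM in stem control. Leaf was at 591 FPKM in drought and 831 FPKM in control. In well-watered plants this gene was thus highest in leaf, and in drought it was highest in root. The reference gives it no name.

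AC206201.3_FG004 and GRMZM2G026910 are the pair that kept leaf as their highest organ. The first had 118 FPKM in stem drought and 26.1 FPKM in stem control, 27.1 FPKM in root drought and 5.21 FPKM in root control, and 159 FPKM in leaf drought and 202 FPKM in leaf control. The second had 21.2 FPKM in stem drought and 6.74 FPKM in stem control, 11.1 FPKM in root drought and 1.20 FPKM in root control, and 38.8 FPKM in leaf drought and 63.4 FPKM in leaf control. Both were higher in drought in the organs where they were scarcer, and stayed below their leaf level there.

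GRMZM2G503484 came second among all members by its smaller ratio. Root held 192 FPKM in drought and 13.8 FPKM in control, stem 48.0 FPKM in drought and 6.38 FPKM in control, and leaf 23.5 FPKM in drought and 38.8 FPKM in control. These are differences of 13.9-fold in root and 7.53-fold in stem, with leaf 1.65-fold lower in drought. In GRMZM5G896006 the stem ratio was the larger, and its stem log2 ratio of 3.71 was the highest of the 30. It had 38.2 FPKM in stem drought and 1.99 FPKM in stem control, a 19.2-fold difference, against 57.7 FPKM in root drought and 16.1 FPKM in root control, a 3.57-fold difference. Its leaf level was 11.7 FPKM in drought and 19.5 FPKM in control.

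GRMZM2G115839 was far more changed in root than in stem. Its root level was 94.8 FPKM in drought and 4.09 FPKM in control, a log2 ratio of 4.23, and its stem level 30.7 FPKM in drought and 9.77 FPKM in control, a log2 ratio of 1.56. Leaf had 73.9 FPKM in drought and 43.9 FPKM in control, which makes it one of 2 leaf-rich members that were higher in drought leaf. The other is GRMZM2G090626, at 19.8 FPKM in leaf drought and 19.0 FPKM in leaf control, 33.4 FPKM in stem drought and 7.39 FPKM in stem control, and 24.4 FPKM in root drought and 2.25 FPKM in root control. In this gene the organs, which were 8.44 times apart between leaf and root in control, lay within 19.8 and 33.4 FPKM in drought.

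GRMZM2G401026 and GRMZM2G171383 both had 2.51 FPKM in root control. GRMZM2G401026 had 41.7 FPKM in root drought, 16.1 FPKM in stem drought and 3.94 FPKM in stem control, and 20.4 FPKM in leaf drought and 22.4 FPKM in leaf control. GRMZM2G171383 had 37.6 FPKM in root drought, 22.2 FPKM in stem drought and 6.47 FPKM in stem control, and 28.5 FPKM in leaf drought and 48.3 FPKM in leaf control. In both genes root was the lowest organ in control and the highest in drought. GRMZM2G042683 was highest in stem in drought and in leaf in control, with 243 FPKM in stem drought and 84.8 FPKM in stem control, 30.2 FPKM in root drought and 5.50 FPKM in root control, and 107 FPKM in leaf drought and 208 FPKM in leaf control. Its leaf log2 ratio of -0.95 was the lowest among the members.

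The remaining 6 leaf-rich members had ratios between 2.92-fold and 6.07-fold in stem and root. GRMZM2G081886 had 129 FPKM in root drought and 21.3 FPKM in root control, 39.9 FPKM in stem drought and 12.7 FPKM in stem control, and 20.9 FPKM in leaf drought and 39.6 FPKM in leaf control. GRMZM2G146951 had 99.6 FPKM in root drought and 29.7 FPKM in root control, 83.9 FPKM in stem drought and 28.7 FPKM in stem control, and 30.3 FPKM in leaf drought and 37.9 FPKM in leaf control. Root was the highest organ in drought for both. GRMZM2G079256 was instead highest in stem in drought, with 54.4 FPKM in stem drought and 10.5 FPKM in stem control, 23.3 FPKM in root drought and 7.45 FPKM in root control, and 19.1 FPKM in leaf drought and 25.7 FPKM in leaf control. GRMZM2G140609, GRMZM2G175785 and GRMZM2G179170 had between 23.6 and 40.3 FPKM in stem and root in drought, against 6.45 to 12.1 FPKM in control. Over the 17 genes the leaf log2 ratio ran from -0.95 to 0.74 with a median of -0.49, and 15 were lower in drought leaf.

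A further 8 members were present in leaf without being highest there, and Gns1, rip2 and TIFY27 are among them. GRMZM2G107082 was abundant in all 3 organs, with 189 FPKM in stem drought and 59.8 FPKM in stem control, 141 FPKM in root drought and 40.5 FPKM in root control, and 30.9 FPKM in leaf drought and 37.6 FPKM in leaf control. GRMZM2G314652 had 88.8 FPKM in root drought and 17.1 FPKM in root control, 37.6 FPKM in stem drought and 11.4 FPKM in stem control, and 4.67 FPKM in leaf drought and 5.09 FPKM in leaf control. GRMZM2G129929 had 56.6 FPKM in root drought and 6.6 FPKM in root control, 73 FPKM in stem drought and 22.8 FPKM in stem control, and 5.66 FPKM in leaf drought and 6.12 FPKM in leaf control. In these 3 genes leaf was the lowest organ in both treatments, and the leaf ratio lay between -0.27 and -0.10 on the log2 scale.

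GRMZM2G068436 and GRMZM5G871382 were also higher in drought leaf, with log2 ratios of 0.45 and 0.89. GRMZM2G068436 had 13.4 FPKM in root drought and 0.742 FPKM in root control, 26 FPKM in stem drought and 7.73 FPKM in stem control, and 3.51 FPKM in leaf drought and 2.31 FPKM in leaf control. GRMZM5G871382 had 10.9 FPKM in leaf drought and 5.41 FPKM in leaf control, 27.4 FPKM in root drought and 7.56 FPKM in root control, and 13.7 FPKM in stem drought and 3.22 FPKM in stem control. Without the added 1 FPKM its leaf ratio was 2.01-fold, the highest among the members above 2 FPKM in leaf.

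The last 5 members were under 2 FPKM in both leaf libraries, where the leaf limit asks little because 1 FPKM is added to both values. The study relates GRMZM2G341410 to cell wall biogenesis and lists it as regulated in leaf as well. It had 31.6 FPKM in stem drought and 4.12 FPKM in stem control, 17.5 FPKM in root drought and 1.68 FPKM in root control, and 0.111 FPKM in leaf drought and 0.652 FPKM in leaf control. Its leaf level was thus 5.89-fold lower in drought without the added 1 FPKM, and with 0.1 FPKM added in place of 1 it left the rule. GRMZM2G089783 had a root ratio of 29.6-fold without the added 1 FPKM, with 22.5 FPKM in drought and 0.759 FPKM in control, and a root log2 ratio of 3.74 with it, below Gns1 (4.62) and GRMZM2G115839 (4.23). Its stem held 19.5 FPKM in drought and 4.99 FPKM in control, and its leaf 1.01 FPKM in drought and 0.559 FPKM in control.

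GRMZM5G883071 was listed at 0 in both leaf libraries. It had 22.6 FPKM in root drought and 5.11 FPKM in root control, and 22.3 FPKM in stem drought and 6.56 FPKM in stem control, so its levels in stem and root were alike in each treatment. GRMZM2G438243 and GRMZM2G172652 complete the group, with stem levels of 35.4 and 21.0 FPKM in drought and of 11.9 and 6.18 FPKM in control. Their root levels were 15.5 and 17.2 FPKM in drought, against 1.89 and 5.41 FPKM in control.

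Beside the TIFY genes, 17 lists of stress, hormone and metabolic genes were matched to names of the reference, and none of these 17 contained a member, Gns1 included. They held 868 genes of the tables, of which 299 met the level limits in stem and root, and 0 of these are among the 30. As 0.302% of the 9944 genes are members, a count of 0 is near that share and is read as no result. Of the 23 abscisic acid genes that met the level limits, 2 reached a log2 ratio of 1.5 in root and 0 in stem, where all 9944 genes gave 12.1% in root and 2.92% in stem. For the 18 cell wall genes the counts were 0 in root and 10 in stem, and for the 33 ribosomal protein genes 26 in root and 0 in stem. Of the 80 transcription factor genes 5 reached it in root and 0 in stem. The study's own subject, the MAPKKK kinases at the head of the MAP kinase cascade, had 66 identifiers matched in the tables. Of these 22 were past the level limits and 0 among the members, which is again near the share of 0.302%. By its own limits the study reported ZmMAPKKK21 as differentially expressed in stem and root and not in leaf. The count of 0 thus holds only for the limits used here. The reference matches 17.1% of the table's identifiers and 18 of the 30 members, so these lists see only part of each pathway.

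The values next to each limit show how sharply it divides the genes. The members closest to the stem limit were GRMZM2G438243 and GRMZM2G042683, with log2 ratios at the limit of 1.5 and at 1.51, and the genes just under it were GRMZM2G092752, at 76.3 FPKM in stem drought and 26.3 FPKM in stem control, and GRMZM2G117786, at 22.9 FPKM in stem drought and 7.47 FPKM in stem control. Nearest the root limit were the members GRMZM2G172652 (1.5) and GRMZM2G079256 (1.53), and GRMZM2G111014 (1.48) and GRMZM5G898668 (1.42) lay just below. In leaf, GRMZM5G871382 (0.89) and GRMZM2G115839 (0.74) were inside the upper limit and GRMZM2G118172 (1.13) and GRMZM2G375159 (1.45) outside. At the lower leaf limit, GRMZM2G042683 (-0.95) and GRMZM2G081886 (-0.89) were inside, and GRMZM2G073079 (-1.11) and GRMZM5G862540 (-1.38) outside. By level, GRMZM5G871382 and GRMZM2G401026 passed at 13.7 and 16.1 FPKM in stem drought, while GRMZM5G884151 and GRMZM2G053111 missed at 8.18 and 4.35 FPKM. In root drought GRMZM2G026910 and GRMZM2G068436 passed at 11.1 and 13.4 FPKM, while GRMZM2G378762 and GRMZM5G877321 missed at 9.67 and 5.36 FPKM.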

How the data were processed

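Leaf, stem and root of drought and control plants were sequenced as 1 library each. The authors aligned reads to the maize B73 reference using TopHat, ran Cufflinks and Cuffdiff, and deposited FPKM values in a table per tissue. Versions, annotation and genome build are not given in the sources used here. The authors' own log2 ratio column was not used. Ratios were recomputed from FPKM with a pseudocount of 1 FPKM, which understates the change of low genes. Levels set side by side across tissues come from separate tables, whose common scaling is not stated. No test was run, since no condition has a second value. Genes under 0.15 FPKM showed no whole-read steps (at most 5.85% of ratios within 1% of the commonest), so read counts could not be recovered from them, and library totals were not used. The code of the rule was checked on simulated data with 200 planted genes. Those genes were given values that meet the limits, so the check concerns the code and says nothing about the members.

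Names came from RefSeq on Zm-B73-REFERENCE-NAM-5.0 by identifier, without coordinates. The members, lists and limits were chosen with earlier results of these data known. The genes to name were members with a gene name, the 15 with the largest smaller ratio of stem and root, the 5 most abundant in drought in stem and in root, and the 2 nearest each limit on either side, and the other members were added after their values were seen. Alternatives changed the pseudocount, the centring, and the level and ratio limits. Python 3.11.15, numpy 2.4.6, pandas 2.3.3 and matplotlib 3.10.9 were used.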

Additional observations from a re-analysis of the deposited data

Results flagged for a closer look

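Leaf differed from stem and root in direction in part of the genes. While stem and root were higher in drought in all 30 members, as the rule requires, leaf was lower in drought in 21 of them. The difference between the organs was not tested, because each rests on 1 library per treatment, and 57.4% of all genes with the same stem and root level limits and the same leaf range were also lower in drought leaf. Of the 30 leaf log2 ratios, 18 lay within 0.5 of 0. The rule keeps all 30 between -1 and 1, so small leaf ratios are fixed by it. The added 1 FPKM narrows them further in members that are scarce in leaf. The lowest leaf log2 ratios were those of GRMZM2G042683 (-0.95) and GRMZM2G081886 (-0.89).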

How the results depend on the processing

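The number of genes that met the rule depended on its limits. It was 17 with log2 ratios centred on each tissue's median, 18 with a leaf log2 ratio between -0.5 and 0.5, 6 with the level limit put at 50 FPKM, 5 with a log2 ratio of at least 2 and 193 with one of at least 1. With a pseudocount of 0.1 FPKM it was 36, of which 28 are among the 30, without a minimum FPKM 45, and with at least 1 FPKM in both leaf libraries 26. The members' medians moved by less than 1.5 times under the other pseudocount and under centring, in each tissue. The direction in stem and root is fixed by the rule, and 4 root ratios grew by more than 1.5 times with 0.1 FPKM added. The promoter window could not be varied, since promoters were not searched. No paired analysis was possible because each tissue and treatment has 1 library, and for the same reason no replicate could be left out. The number of reads behind the low control values, such as those of rip2 and GRMZM2G089783 in root, is not known from the tables.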

Other observations

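Of the 30 members 18 were matched in the reference and 12 have no position in it. By gene order, the closest pair of matched members on a chromosome was 92 genes apart. Within 2 genes of a member, 29 other identifiers of the tables could be placed, beside 15 of the members, and 0 of them reached a log2 ratio of 1.5 in both stem and root, as did 0.553% of the 9944 genes past the level limits. Of the 15 neighbours past these limits 4 reached 1.5 in root, where 12.1% of the 9944 did, and 2 of these adjoin GRMZM2G129929. GRMZM2G325683 had 162 FPKM in root drought and 15.3 FPKM in root control, with a stem log2 ratio of 0.34, and GRMZM2G325693 had 160 FPKM in root drought and 25.6 FPKM in root control, with a stem log2 ratio of 0.60.

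The reference joins some identifiers into a single gene, which the tables list apart. GRMZM2G179170 shares its reference gene with GRMZM2G033226 and GRMZM2G045534. GRMZM2G179170 itself had 35.2 FPKM in stem drought and 8.67 FPKM in stem control, and 40.3 FPKM in root drought and 12.1 FPKM in root control. GRMZM2G033226 had 89.5 FPKM in stem drought and 18.3 FPKM in stem control, and 76.4 FPKM in root drought and 33.7 FPKM in root control. GRMZM2G045534 had 30.4 FPKM in stem drought and 18.8 FPKM in stem control, and 46.7 FPKM in root drought and 10.1 FPKM in root control. All 3 were higher in drought in both organs and lower in drought in leaf, with leaf log2 ratios of -0.49, -0.84 and -0.38, and only GRMZM2G179170 met both limits. The second identifier of the Gns1 gene, GRMZM2G433365, had 3.87 FPKM in root drought and was listed at 0 in root control.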
